A study of Homo sapiens with 4 samples.

Results

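SYT1, SYN1, NEFL, NEFM and ELAVL4 are 5 genes best known from neurons, and each carried a listed γH2AX peak at one of its ends in every library of a series made in a uterine leiomyosarcoma line. They are 5 of 19970 protein-coding genes on chromosomes 1 to 22 and X, and they were chosen by their listed peaks, as the genes of an earlier neuronal list that had one at a gene end both with 2 drugs together and with DMSO. Other neuronal genes, not in that list, met the same condition and are described further on. Their presence in those lists is therefore a description and not a finding. Members were located by their hg38 RefSeq extents, and every row of the peak lists within the gene extent plus 5 kb either side was taken, wherever it overlapped that window by at least 1 bp.

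γH2AX is histone H2A.X carrying a phosphate on its C-terminal tail, which cells place on chromatin flanking broken DNA, and it was mapped by chromatin immunoprecipitation and sequencing in SK-UT-1, a human cell line from a malignant tumour of uterine smooth muscle. Cells received OTS186935 at 1 µM together with doxorubicin at 0.5 µM (the combination), doxorubicin alone at 0.5 µM, OTS186935 alone at 1 µM, or 0.1% DMSO as the vehicle. The series title speaks of an inhibitor of poly (ADP-ribose) polymerase, while the labels of these libraries give doxorubicin. OTS186935 inhibits the histone methyltransferase SUV39H2, and doxorubicin is a topoisomerase II poison. Each condition had 1 library, so nothing between conditions could be tested and all values are set side by side.

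In neurons these genes divide the work of signalling and shape. Synaptotagmin 1, from SYT1, is the calcium sensor that triggers fast release of transmitter from synaptic vesicles, and synapsin 1, from SYN1, tethers those vesicles to the cytoskeleton. The light and medium neurofilament chains, from NEFL and NEFM, assemble into the filaments that set the calibre of axons, and ELAVL4 encodes HuD, an RNA-binding protein that stabilises neuronal messages. Outside neurons many such genes are held silent by the repressor REST, which binds a DNA element called RE1. A chromatin mark does not measure expression, so whether any of them was transcribed in these cells was not analysed here.

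Promoter sequences are shown for the 3 members with a promoter entry, whose peaks lay on or beside their annotated start sites. The peaks of NEFL and NEFM also lay at the ends from which those genes are transcribed, but no entry was found for them. Entries of the RefSeq promoter table (GRCh38.p14), which run from 250 bases before to 50 bases after a start site, were found for 3 of the 5 members. They are written 5′ to 3′ on the gene's own strand. Capitals mark the bases covered by a peak in every library that had a peak over the window, which was all 4 for SYT1 and ELAVL4 and 3 (combination, OTS186935 and DMSO) for SYN1.
SYT1 (chr12:78864524-78864823, plus strand): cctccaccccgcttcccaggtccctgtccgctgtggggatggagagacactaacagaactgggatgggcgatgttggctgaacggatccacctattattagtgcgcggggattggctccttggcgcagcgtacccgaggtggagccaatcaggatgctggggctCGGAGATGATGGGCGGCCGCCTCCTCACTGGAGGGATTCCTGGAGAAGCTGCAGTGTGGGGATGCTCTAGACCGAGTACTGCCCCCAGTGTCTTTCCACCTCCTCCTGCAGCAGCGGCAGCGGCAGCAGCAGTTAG
ELAVL4, first start site (chr1:50047805-50048104, plus strand): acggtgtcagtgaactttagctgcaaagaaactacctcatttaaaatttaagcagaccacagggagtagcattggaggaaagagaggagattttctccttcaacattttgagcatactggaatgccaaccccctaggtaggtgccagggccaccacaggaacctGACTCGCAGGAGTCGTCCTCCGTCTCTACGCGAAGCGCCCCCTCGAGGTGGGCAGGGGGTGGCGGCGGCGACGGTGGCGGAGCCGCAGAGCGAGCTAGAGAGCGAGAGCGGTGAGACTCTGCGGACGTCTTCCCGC
SYN1 (chrX:47619808-47620107, minus strand): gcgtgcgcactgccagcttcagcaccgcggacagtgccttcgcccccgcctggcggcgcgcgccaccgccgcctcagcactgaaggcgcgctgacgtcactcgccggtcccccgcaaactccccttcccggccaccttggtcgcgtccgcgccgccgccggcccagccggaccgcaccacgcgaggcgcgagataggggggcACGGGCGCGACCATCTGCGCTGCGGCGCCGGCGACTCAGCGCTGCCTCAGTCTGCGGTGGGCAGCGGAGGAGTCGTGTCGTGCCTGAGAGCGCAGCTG

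The capitals cover 136 bases of the SYT1 window, 136 bases of the ELAVL4 window and 98 bases of the SYN1 window, in each case including the start site itself. These genes were chosen by peaks of the same lists, so nothing is read from the shares of all promoters, given as background. Over 22131 promoter windows of protein-coding genes, a peak lay on 5.13% with the combination, 6.84% with doxorubicin, 9.97% with OTS186935 and 14.5% with DMSO. In 2.34% of windows there was a peak in all 4 lists. ELAVL4 has 7 annotated start sites in the table, and only the window of the first held any peak; the other 6 held none in any library.

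Base composition differed between the 3 promoters. The SYN1 window was 75.3% G and C with 46 CpG pairs, higher in GC than 88.4% of promoter windows. The windows of SYT1 (62% GC, 15 CpG) and ELAVL4 (57.7% GC, 20 CpG) lay near the median of all windows, 62.3% GC and 21 CpG. Windows with a peak in all 4 lists had a median of 65.7% GC and those with no peak 61.3%. Neither SYT1 nor ELAVL4 thus stood at the CpG-rich end of promoters, and SYN1 did.

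4 motifs were searched on both strands: the core of RE1 (TTCAGCACC followed after 2 bases by GGACAG), the cyclic AMP response element TGACGTCA, the CCAAT box CCAAT and the GC box GGGCGG. They were present in 0.0226% (5 windows), 2.26%, 34.6% and 56.3% of the 22131 windows in that order. The SYN1 window held the RE1 core, shown here in capitals with its neighbouring bases because RE1 is the textbook element of this gene.
RE1 of SYN1 (chrX:47620074-47620090, minus strand): gccagcTTCAGCACCGCGGACAGtgcctt
This match lay under the DMSO peak and under no peak of the other libraries, as did the TGACGTCA of the same window at positions 47620009 to 47620016. The SYT1 window held CCAAT in both orientations and GGGCGG once, and a peak of every library lay over the GGGCGG. The ELAVL4 window held CCAAT once, on the opposite strand and outside the peaks. A match describes letters and does not show that a factor was bound.

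A gene-end peak means here a peak that overlaps a window reaching 1 kb to each side of a gene's first or last annotated base. All 5 members had one in each library, which the choice of members fixed for the combination and DMSO. The share of all protein-coding genes with a gene-end peak was 14.8% with the combination, 21.9% with doxorubicin, 28.7% with OTS186935 and 38.7% with DMSO, and 7.59% had one in all 4 lists. Among genes that had such a peak with DMSO, 31.4% also had one with the combination, 44.3% with doxorubicin and 56.5% with OTS186935. Nothing is read from the members' 5 of 5 against these shares, since the same lists chose them.

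**Figure D1:**
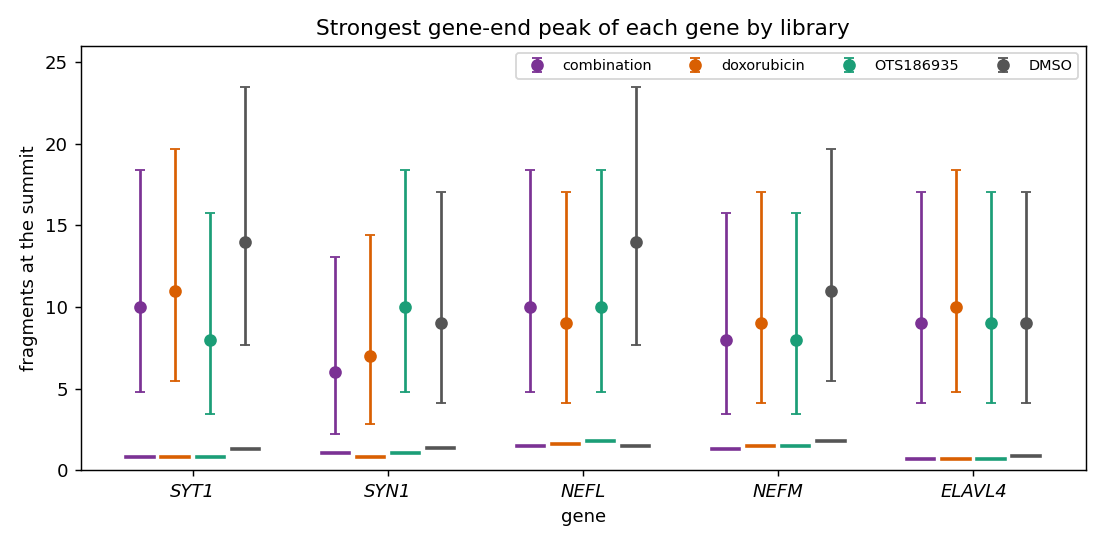
Fragments at the summit of the strongest gene-end peak of each member (y axis, fragment pileup solved from the authors' fold and −log10 p; points) with exact 95% Poisson intervals, by gene (x axis) and library (colours). Short horizontal lines are the local background. Points range from 6 to 14 fragments, all above their background, and for each gene the intervals of the 4 libraries overlap.

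The peaks rested on few fragments. The summit height was solved from the fold enrichment over local background and the −log10 p, which are the authors' values for each peak and are used here only to describe peaks within their own list. At the strongest gene-end peaks the height ran from 6 fragments (SYN1 with the combination) to 14 (SYT1 and NEFL with DMSO), while the local background ran from 0.71 fragments at ELAVL4 to 1.79 at NEFM. Intervals beside fragment numbers are exact 95% Poisson intervals and cover counting error only. For each of the 5 genes the intervals of the 4 libraries overlapped. Overlap of intervals is not a test, and no difference in height between conditions was tested or is claimed.

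In the plot of summit heights SYT1 was the tallest member with doxorubicin and level with NEFL as tallest with the combination and DMSO. With OTS186935 SYT1 was level with NEFM as the lowest. The SYT1 peak at the 5′ end (chr12, 78864535 to 78865252 with the combination) had 10 fragments with the combination (4.8 to 18.39), 11 with doxorubicin (5.49 to 19.68), 8 with OTS186935 (3.45 to 15.76) and 14 with DMSO (7.65 to 23.49). The DMSO library was highest and the OTS186935 library lowest, with overlapping intervals. The authors' fold was 6.11 with the combination, 6.56 with doxorubicin, 4.97 with OTS186935 and 6.55 with DMSO. Within each list, the −log10 q of this peak exceeded that of 92.5% of genes with a gene-end peak for the combination, 94.3% for doxorubicin, 63.4% for OTS186935 and 91.3% for DMSO. It was thus among the stronger gene-end peaks in 3 lists and nearer the middle with OTS186935.

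The place of the SYT1 peak was similar in the 4 lists. The 4 peaks shared 457 bp (78864688 to 78865144), and their summits lay within 269 bp of each other. All lay inside the annotated gene, with summits 870 to 1139 bp from its lower end at 78863982, which is upstream of the start site at 78864774. A second DMSO peak at the other end of the gene (79452490 to 79452821) had 3 fragments, the fewest that any DMSO peak at the background floor had, and no other library listed a peak there.

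At SYN1, on chromosome X, the 5′ peak had the fewest fragments of the members' gene-end peaks with the combination and doxorubicin, and its edges differed between libraries. It had 6 fragments with the combination (2.2 to 13.06), 7 with doxorubicin (2.81 to 14.42), 10 with OTS186935 (4.8 to 18.39) and 9 with DMSO (4.12 to 17.08). The 2 libraries with doxorubicin had the lower heights, within overlapping intervals. The −log10 q was 1.64 with the combination, 2.81 with doxorubicin, 4.68 with OTS186935 and 3.32 with DMSO, against a listing limit of 1. The combination peak ranked above 14.8% of genes with a gene-end peak in its list, the lowest rank of any member in any library.

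The SYN1 peak ran from 47619503 to 47619905 with the combination, from 47619345 to 47619754 with doxorubicin, from 47619280 to 47619952 with OTS186935 and from 47619351 to 47620471 with DMSO. The start site is at 47619857, so the doxorubicin peak stopped inside the gene and the DMSO peak reached farthest upstream. The 4 peaks shared 252 bp, all within the gene, and the summits spread over 524 bp.

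**Figure D2:**
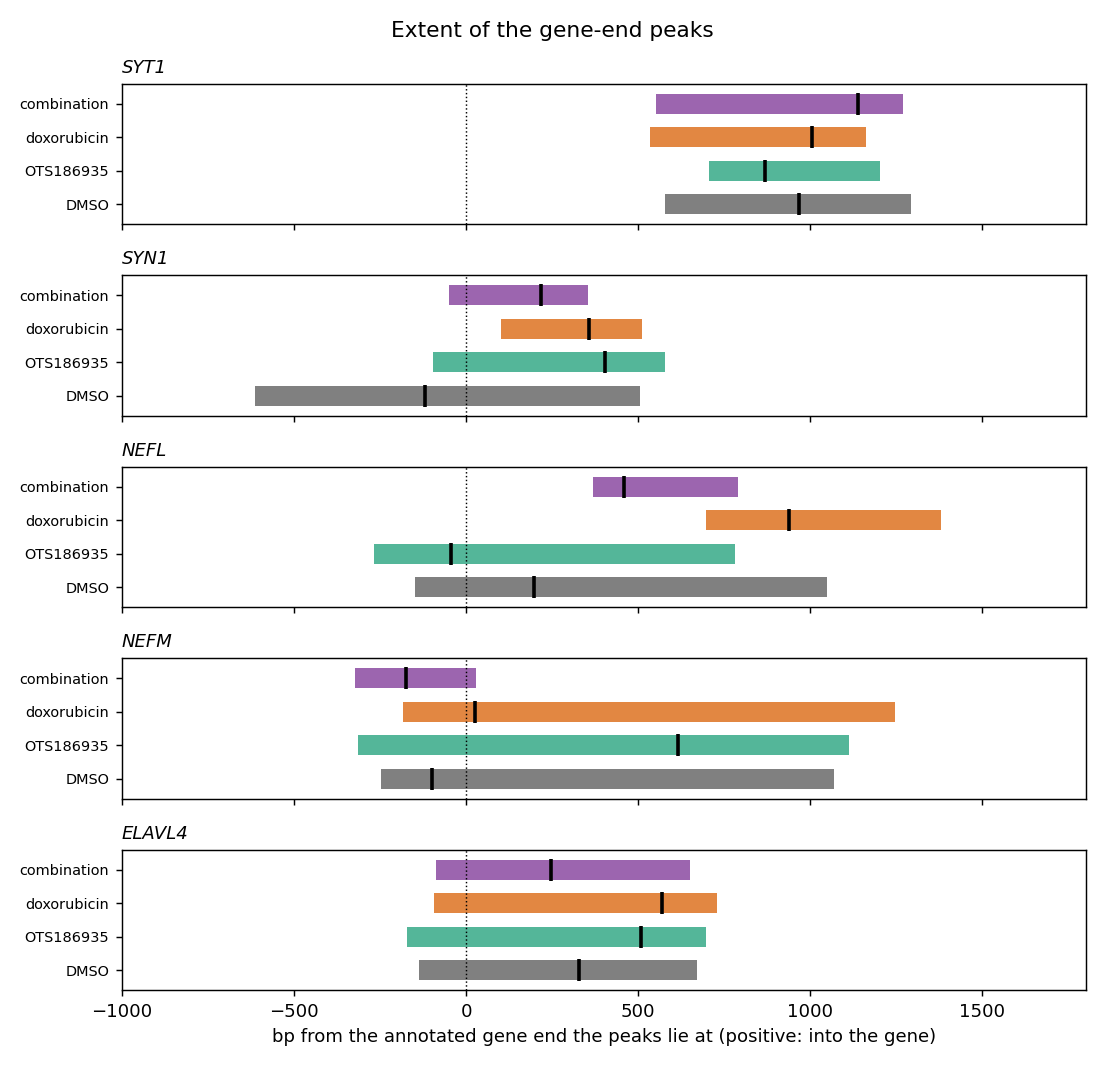
Extent of the strongest gene-end peak of each member in each library (bars), with its summit (black tick). The x axis is the distance in bp from the annotated gene end at which the peaks lie, positive into the gene. ELAVL4 and SYT1 peaks cover largely the same bases in every library, while those of NEFL are offset from one another and share 86 bp.

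The neurofilament genes lie beside each other on chromosome 8, with windows that do not overlap. As background, both are transcribed from the ends at which their peaks lay, NEFM from its lower end and NEFL from its upper end. At NEFL (24950955 to 24956612) the peak had 10 fragments with the combination (4.8 to 18.39), 9 with doxorubicin (4.12 to 17.08), 10 with OTS186935 (4.8 to 18.39) and 14 with DMSO (7.65 to 23.49). The DMSO library was highest, and the 3 treated libraries were within 1 fragment of each other. The −log10 q was 3.17 with the combination, 2.46 with doxorubicin, 3.01 with OTS186935 and 6.81 with DMSO. The DMSO peak ranked above 87.7% of genes with a gene-end peak in its list, and the treated ones above 64.2%, 39% and 46.2% in the order just given.

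The place of the NEFL peak varied more than that of any other member. It spanned 24955821 to 24956243 with the combination, 24955231 to 24955916 with doxorubicin, 24955831 to 24956880 with OTS186935 and 24955564 to 24956761 with DMSO. The 4 peaks formed 1 region of 1650 bp but had only 86 bp in common, and their summits spread over 982 bp. The doxorubicin and combination peaks lay wholly inside the gene, and the OTS186935 and DMSO peaks crossed its end. In the DMSO list the region held 2 summits, in the others 1.

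NEFM (24913761 to 24919093) had 8 fragments with the combination (3.45 to 15.76), 9 with doxorubicin (4.12 to 17.08), 8 with OTS186935 (3.45 to 15.76) and 11 with DMSO (5.49 to 19.68). The 4 intervals again overlapped. Its −log10 q was 2.37 with the combination, 2.68 with doxorubicin, 2.27 with OTS186935 and 3.77 with DMSO, ranks of 40%, 44.9%, 26.9% and 54.6% within the lists in that order. NEFM was thus an ordinary gene-end peak in each list. Its width was 353 bp with the combination, 1431 bp with doxorubicin, 1428 bp with OTS186935 and 1319 bp with DMSO, so the combination peak covered the gene's end and 31 bp of the gene, while the others reached over 1 kb into it. The 4 peaks had 215 bp in common. Median widths of all peaks were 397, 405, 448 and 465 bp in the same order, so the 3 wider peaks were broader than most.

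ELAVL4 on chromosome 1 was the steadiest member. Its peak had 9 fragments with the combination (4.12 to 17.08), 10 with doxorubicin (4.8 to 18.39), 9 with OTS186935 (4.12 to 17.08) and 9 with DMSO (4.12 to 17.08). The libraries were within 1 fragment of each other. The fold was 5.84 with the combination, 6.43 with doxorubicin, 5.84 with OTS186935 and 5.37 with DMSO. The −log10 q was 4.57, 5.67, 5.11 and 4.71 in that order, and the rank within the list 88.7%, 92.6%, 80.5% and 69.7%. ELAVL4 was the only one of the 5 whose DMSO rank was the lowest of its 4 ranks; lists of different length make these ranks no measure of change.

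The ELAVL4 peaks were also the most alike in extent, 737 to 867 bp wide, with 737 bp in common (50047969 to 50048705). The combination peak lay entirely within each of the others. Summits were 246 to 570 bp inside the gene. In the rest of the gene and its flanks no library listed a peak, so this was the only peak in a window of 165.7 kb.

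Together the 5 windows cover 852.7 kb and held 8 peaks with the combination, 15 with doxorubicin, 15 with OTS186935 and 11 with DMSO. That is 9.38, 17.59, 17.59 and 12.9 peaks per Mb in that order, against 9.65, 15.7, 19.7 and 24.1 per Mb over chromosomes 1 to 22 and X. The pooled density is set mostly by SYT1, whose window is 598 kb long. By gene, SYT1 had 3.34 to 15.05 peaks per Mb over the libraries and ELAVL4 6.03, below the genome in each library, while NEFL had 63.87, NEFM 65.22 and SYN1 51.76 to 86.27, above it in each. For NEFL and NEFM that density is the single gene-end peak, which chose them, in a short window. The other densities include gene-end peaks too. In the 5 windows together these were 5 of 8 peaks with the combination, 5 of 15 with doxorubicin, 5 of 15 with OTS186935 and 6 of 11 with DMSO. In each library the SYN1 count also includes a peak in the neighbouring gene ARAF. Nothing is therefore read from the members' densities against the genome. A peak anywhere in the gene extent plus 5 kb was common among all protein-coding genes: 50.5% had one with the combination, 65.1% with doxorubicin, 71.7% with OTS186935 and 78.3% with DMSO, and 39.7% in all 4. All 5 members had one in all 4, by the gene-end peaks described.

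The members differed in how many peaks lay away from their ends. NEFL, NEFM and ELAVL4 had 1 peak in each library, the one at the gene end. SYT1 had 2 with the combination, 7 with doxorubicin, 9 with OTS186935 and 4 with DMSO over 598 kb, and SYN1 had 3, 5, 3 and 4 in that order over 58 kb. Peaks of the 4 lists joined into 24 regions, of which 6 were listed in all 4 libraries and 12 in 1. At gene ends 5 of 6 regions were in all 4, and away from them 1 of 18 (5.56%). The first count follows largely from the choice of members by gene-end peaks, so the 2 counts are not compared. The 1 region away from the ends lay in a neighbouring gene, described below. Over all chromosomes, gene ends included, 7.36% of 123983 regions were in all 4 and 58.4% in 1. With 1 region of 18, no difference from that share can be read.

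**Figure D3:**
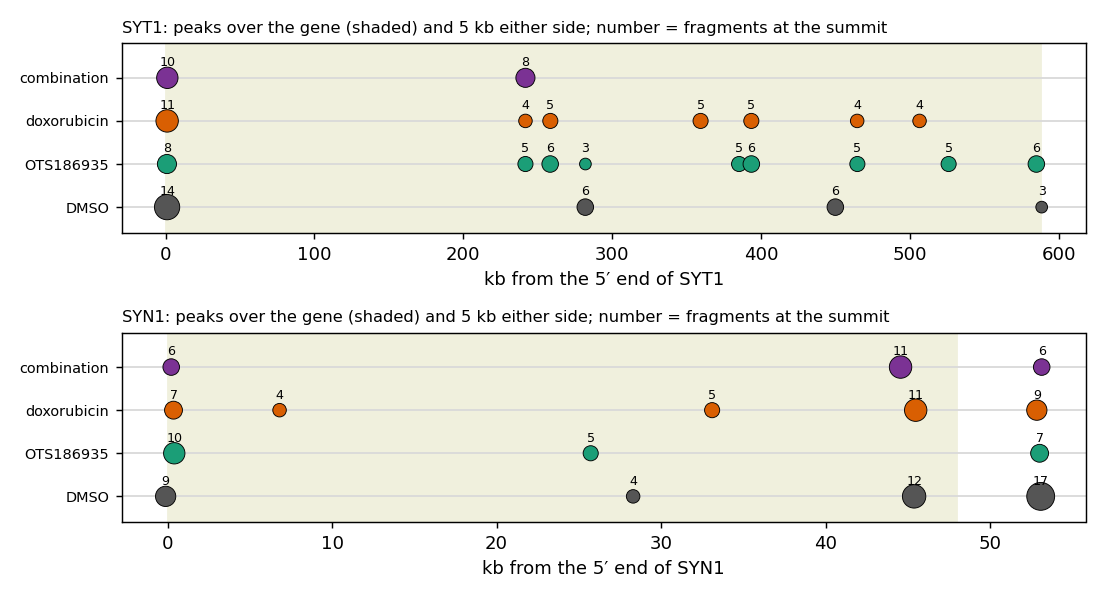
Summits of all peaks over SYT1 and SYN1 and 5 kb either side, by library (rows); the x axis is the distance in kb from the 5′ end, the shading is the gene, and circle area and number give fragments at the summit. In SYT1 the peak at the start is present in every row, while those inside the gene have 3 to 8 fragments and mostly differ between rows.

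Inside SYT1 the single-drug libraries listed more peaks than DMSO. In all, 17 peaks lay away from the gene's ends, each with 3 to 8 fragments. One region 241.5 kb into the gene (79105522 to 79105930) was listed in all 3 treated libraries, with 8 fragments with the combination (3.45 to 15.76), 4 with doxorubicin (1.09 to 10.24) and 5 with OTS186935 (1.62 to 11.67), and not with DMSO. Its combination peak, at 6.3-fold and a −log10 q of 5.04, was as strong by those measures as the peak at the SYT1 start in that library. Regions 258.1, 393.4 and 464.5 kb into the gene were listed with both single drugs and with neither DMSO nor the combination, on 4 to 6 fragments.

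The same patterns occurred elsewhere. Of all regions over the genome, 0.805% were listed in the 3 treated libraries and not with DMSO, and 3.19% with the 2 single drugs only. Among protein-coding genes, 5.46% had more peaks with doxorubicin and also with OTS186935 than with DMSO in the gene extent plus 5 kb, a tally made after the SYT1 values were seen. The median window of protein-coding genes was 34.2 kb, against 598 kb for SYT1, so this share was not matched to SYT1 for length. An unlisted site may still hold DMSO fragments, since the lowest DMSO peak at the background floor had 3. The DMSO fragments at these sites are not known, so no difference from DMSO can be shown at any of them. A region 281.7 kb into SYT1, over the start of the non-coding gene LOC124902973, was listed with OTS186935 (3 fragments) and DMSO (6 fragments).

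With DMSO the strongest peak of the SYN1 window belonged to its neighbour. It lay inside ARAF, a kinase gene that abuts the 3′ end of SYN1, at the edge of the 5 kb flank (47566615 to 47567326 with DMSO). It had 6 fragments with the combination (2.2 to 13.06), 9 with doxorubicin (4.12 to 17.08), 7 with OTS186935 (2.81 to 14.42) and 17 with DMSO (9.9 to 27.22), the highest number in any member window. The DMSO height stood above the others, although all 4 intervals overlapped. Its −log10 q was 1.01 with the combination, 2.78 with doxorubicin, 1.15 with OTS186935 and 7.21 with DMSO. With the combination and OTS186935 it was the weakest of the window by that measure. It was the one region away from the members' ends that all 4 lists held, and its summit fell just outside the window in the combination, OTS186935 and DMSO lists.

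The 3′ part of SYN1 held a further peak with doxorubicin (11 fragments; 47573949 to 47574607) and DMSO (12 fragments; 47573937 to 47574750), and a separate one with the combination (11 fragments; 47575080 to 47575467). With OTS186935 none was listed there. A doxorubicin peak of 5 fragments at 47586527 to 47586841 lay over the end of TIMP1, a metalloproteinase inhibitor gene nested within SYN1.

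The peak limit set part of this picture. With a −log10 q of 5 or more, a member's gene-end peak remained at SYT1 with the combination, at SYT1 and ELAVL4 with doxorubicin, at ELAVL4 with OTS186935 and at SYT1 and NEFL with DMSO, and no region was left in all 4 lists. At that limit 1.12%, 2.61%, 5.84% and 10.5% of all protein-coding genes had a gene-end peak with the combination, doxorubicin, OTS186935 and DMSO. Lists were then cut to their 29619 rows of highest −log10 p, which is the length of the combination list, so that list was unchanged. Its 5 of 5 members restates the choice of members. With doxorubicin all 5 members kept a gene-end peak. The OTS186935 list then had 3 (SYT1, SYN1 and ELAVL4) and the DMSO list 3 (SYT1, NEFL and ELAVL4). SYT1 and ELAVL4 were the 2 members present in all 4 lists at equal length. The equal-length shares of all protein-coding genes were 14.8%, 14.6%, 14.8% and 15.9% with the combination, doxorubicin, OTS186935 and DMSO. Nothing is read from the members' counts against these shares, since the same lists chose the members.

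Some other neuronal genes had a gene-end peak with the combination and DMSO but missed 1 or both of the single-drug lists. STX1A missed both, with a −log10 q of 1.08 with the combination and 2.02 with DMSO. INA, which encodes the neuronal filament protein α-internexin, had gene-end peaks with a −log10 q of 2.03 with the combination, 9.82 with OTS186935 and 8.83 with DMSO, and none with doxorubicin. SYP, which encodes the vesicle protein synaptophysin, had 2.39 with the combination, 1.73 with doxorubicin and 4.03 with DMSO, and none with OTS186935. The member nearest the listing limit of 1 was SYN1, at 1.64 with the combination.

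The members were then set beside 51 other neuronal genes in 5 lists: synaptic vesicle and release genes, neuronal cytoskeleton, neuronal RNA-binding proteins, channels and receptors, and neurogenic transcription factors. The last list holds REST, which represses neuronal genes and is nevertheless counted among the 51. Gene-end peaks were found at 14 of 51 (27.5%) with the combination, 17 of 51 (33.3%) with doxorubicin, 16 of 51 (31.4%) with OTS186935 and 24 of 51 (47.1%) with DMSO. These counts depended on the length of the lists without following its order, since the OTS186935 list was longer than the doxorubicin list. With lists of equal length, the 56 genes including the members gave 19, 15, 13 and 14 in the same order. The full lists gave 19, 22, 21 and 29. The members, chosen by their peaks with the combination and DMSO, supplied 5, 5, 3 and 3 of the equal-length counts. No order of libraries is therefore read from those counts. The equal-length shares of all protein-coding genes were 14.8%, 14.6%, 14.8% and 15.9%. The shares of genes kept from DMSO were not recomputed at equal length. In the full lists the share of all protein-coding genes was lower in each library, at 14.8%, 21.9%, 28.7% and 38.7% in that order. Of the 24 with a DMSO gene-end peak, 11 (45.8%) also had one with the combination, 12 (50%) with doxorubicin and 14 (58.3%) with OTS186935. The first of these lay above the 31.4% of all genes, and the last was close to the 56.5% of all genes. The median −log10 q of the listed peaks was 2.51, 2.59, 3.64 and 3.75 for these genes and 2.6, 2.68, 3.23 and 3.66 for all genes, in the order combination, doxorubicin, OTS186935 and DMSO, so the peaks themselves were of ordinary strength.

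**Figure D4:**
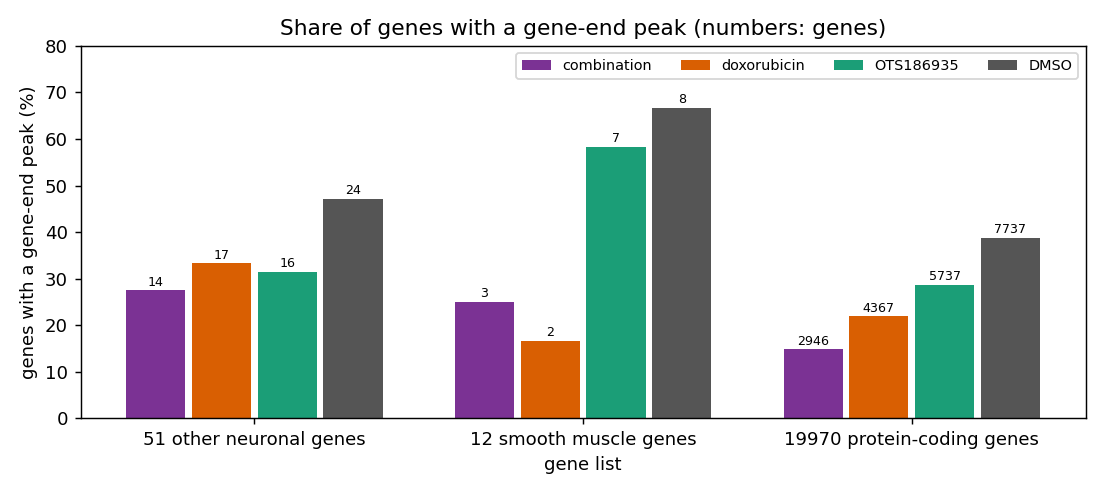
Percent of genes with a gene-end peak (y axis) in the 51 neuronal genes other than the 5 members, in 12 smooth muscle genes and in all 19970 protein-coding genes, by library (colours); numbers over the bars are genes. The neuronal bars run from 27.5% to 47.1% and stand above those of all genes in each library. The smooth muscle bars are 25% with the combination, 16.7% with doxorubicin, 58.3% with OTS186935 and 66.7% with DMSO. They stand below those of all genes only with doxorubicin.

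Smooth muscle genes, those of the tissue from which the line came, had a different spread over the libraries. Of 12 such genes 3 had a gene-end peak with the combination, 2 with doxorubicin, 7 with OTS186935 and 8 with DMSO. Their share was above that of all genes with the combination (25%), OTS186935 (58.3%) and DMSO (66.7%), and within 1 gene of it with doxorubicin (16.7%). DES, for the muscle filament desmin, and CALD1, for the actin-binding protein caldesmon, had a gene-end peak in every library. With lists this short the counts describe these libraries only.

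Besides the members, 8 of the 51 neuronal genes (15.7%) had a gene-end peak in all 4 libraries, against 7.59% of all genes. The share was much the same in the lists outside neurons. It was 2 of 12 smooth muscle genes (16.7%) and 1 of 7 paralogues of the members outside neurons (14.3%), with DES in both lists. In the vesicle list the neuronal genes with all 4 were SYT2, a fast calcium sensor related to SYT1, SYT11, and RAB3A, a vesicle GTPase. The authors' fold at SYT11 was 5.25 with the combination, 5.4 with doxorubicin, 5.89 with OTS186935 and 8.3 with DMSO. SYT2 had a −log10 q of 3.56 with the combination, 3.89 with doxorubicin, 7.33 with OTS186935 and 2.92 with DMSO. These values belong to lists of different length and are not ranked across them.

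NEFH, NOVA1 and GRIN2B also had a gene-end peak in each library, as did REST, which is counted in the lists although it represses neuronal genes. NEFH, the heavy neurofilament chain that joins the products of NEFL and NEFM, had a −log10 q of 4.51 with the combination, 3.02 with doxorubicin, 3.46 with OTS186935 and 1.87 with DMSO. NEFL and NEFM were chosen by such peaks, so NEFH alone adds to what the choice fixed, and nothing is read about the family. In the same cytoskeleton list INA had no gene-end peak with doxorubicin and PRPH none with the combination. NOVA1, a neuronal splicing regulator, had 2.63 with the combination, 2.59 with doxorubicin, 3.78 with OTS186935 and 6.11 with DMSO. GRIN2B, a glutamate receptor subunit, had 4.31, 3.89, 4.27 and 7.75 in the same order. REST itself, the repressor of neuronal genes, had 1.87 with the combination, 1.05 with doxorubicin, 4.53 with OTS186935 and 2.63 with DMSO.

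Relatives of the members did not all share the pattern. Of the ELAVL family, ELAVL2 had a gene-end peak in the 3 treated libraries and not with DMSO, ELAVL3 in none, and ELAVL1, the form made in most tissues, with DMSO alone. Among synaptotagmins, SYT2 and SYT11 had one in all 4 libraries and SYT4 in none. SYT7 had one in every library but the combination, and SYT13 with OTS186935 and DMSO only. Among synapsins, SYN2 had one with OTS186935 (−log10 q 5.89) and DMSO (1.86), and SYN3 with DMSO alone (2.63). Intermediate filament genes outside neurons were split as well: DES had one in all 4, VIM in none, and GFAP with doxorubicin, OTS186935 and DMSO.

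Genes most like each member were sought by the rank of their strongest peak in the gene extent plus 5 kb among all protein-coding genes, averaged as an absolute difference over the 4 libraries. SYT1 was nearest to PRKG1 (1.72 percentile points) and DIPK2B (2.31), NEFL to ZNF354C (1.66) and CIMIP4 (2.39), NEFM to ELAVL1 (2.31) and ZNF660 (2.38), ELAVL4 to TAFA1 (2.03) and C2CD2 (2.13), and SYN1 to MAP3K10 (1.13) and LHFPL4 (1.83). For SYN1 with DMSO the strongest peak in the window was the one in ARAF, so its likeness rests in part on that neighbour. Other members were left out of that search.

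The libraries were shallow, which limits all of these values. The genome-wide background solved from the lists was 0.428 fragments per position with the combination, 0.389 with doxorubicin, 0.397 with OTS186935 and 0.454 with DMSO, and the median summit had 7 to 8 fragments. Merged peaks numbered 29213, 47495, 59710 and 72858 in that order. No input library was analysed here, so what part of each peak belongs to γH2AX was not tested.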

How the data were processed

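The deposited data were 4 lists of γH2AX peaks, 1 per condition, from SK-UT-1 cells. Per the submitters' processing notes, the genome build was hg38 and the tools were MACS2 2.2.7.1, bedtools 2.30.0, Picard 2.25.3 and Bowtie2 2.4.2; what each did, the peak calling options and any input were not given in the sources used here. For each summit the authors' lists give a position, a fold (a ratio over local background), the −log10 p, the −log10 q and a score. Rows numbered 29619 with the combination, 48594 with doxorubicin, 62008 with OTS186935 and 76870 with DMSO.

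Rows that overlapped or touched were merged, keeping the strongest row's values, on chromosomes 1 to 22 and X. Each summit's fragment number and background were recovered by trying every whole pileup: the fold, taken as pileup + 1 divided by background + 1, gives the background, and the pileup whose Poisson tail came nearest the deposited −log10 p was kept. This matched within 0.002 in 100% of rows. Of 2000 pileups simulated by the same formulas 100% were recovered, which checks the solving step and not the formulas. The simulated backgrounds did not reach the highest of the members. Regions join peaks of different lists that overlap by at least 1 bp. Gene extents came from the RefSeq table of GRCh38.p14, which holds no exons. Python 3.11.15, pandas 2.3.3 and scipy 1.17.1 were used. The members and lists were chosen with earlier results of these data known. Of 7 lists, genes with a gene-end peak in all 4 libraries were named, except 1 that is not reported here; relatives of the members and genes at the edge of the set were picked after their values were seen. Nothing was tested between conditions.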

Additional observations from a re-analysis of the deposited data

How the results depend on the processing

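No paired analysis was possible because each condition had 1 library. Of 99 values recomputed under other settings, 64 stayed close (counts within 1.5 times, percentages within their exact 95% binomial interval) and 35 moved. Libraries are given as combination, doxorubicin, OTS186935 and DMSO. With a −log10 q of 5 or more, members with a gene-end peak numbered 1, 2, 1 and 2, peaks in member windows 2, 2, 1 and 3, neuronal list genes with a gene-end peak (the 5 members included) 1, 2, 6 and 9, regions in all 4 lists 0, and the percent of protein-coding genes with a gene-end peak 1.12, 2.61, 5.84 and 10.5. With lists of equal length, members with a gene-end peak were 3 with OTS186935 and 3 with DMSO, peaks in member windows 6 with OTS186935 and 4 with DMSO, neuronal genes 13 and 14, regions in all 4 lists 2, and the percent of all genes 14.6, 14.8 and 15.9 with doxorubicin, OTS186935 and DMSO. A common −log10 p limit of 3.08 put that percent at 21.2 with doxorubicin, 27.7 with OTS186935 and 36.5 with DMSO. Gene-end windows of 2.5 kb put it at 23.6, 34.6, 44 and 54.5. A reciprocal overlap of 50% left 3 regions in all 4 lists, against 6. Fewer rows or stricter overlap make most of these counts smaller by construction. Gene extents alone, flanks of 10 kb, joining rows within 1 kb, counting rows as deposited and, chosen after seeing the data, requiring the summit inside the window moved no count by over 1.5 times. Summits of 3 to 17 fragments limit every member's value.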
